A study of Sus scrofa with 6 samples.

Results

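Subcutaneous fat of Duroc × Landrace × Yorkshire pigs was sequenced as total RNA in 3 libraries of a control diet and 3 of a diet supplemented with resveratrol, a polyphenol of plants, at 400 mg/kg. Besides annotated genes, the tables list loci that were assembled from the reads and carry the prefix MSTRG instead of a pig Ensembl gene identifier. The loci described here are the 390 that remain of 392 such loci, and of 22844 rows in all, once MSTRG.12981 and MSTRG.14710 are set aside, 2 loci that dominate the libraries. They were split by the number of transcript identifiers listed for each locus: 331 loci list 1 transcript and 59 list several. No allele or genotype is given beyond the cross, and neither the age of the pigs nor the length of feeding is stated in the labels. Whether the libraries of a diet are separate pigs is not stated either, and the p-values below then cover only the spread from library to library, which may be technical.

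An assembled locus is a stretch of the genome where a transcript assembler joins overlapping reads into a model that no annotated gene covers. MSTRG is the default prefix of the assembler StringTie, although the assembler is not given in the sources used here. Such loci can be long non-coding RNAs (lncRNAs, transcripts without a long reading frame, several of which are known to act in the differentiation of fat cells), unannotated parts of protein-coding genes, copies of repeats, or fragments of intronic or structural RNA. The tables give no class, strand or position for them, so none of the 390 is shown here to be non-coding. In bulk tissue, fewer cells of a type and less RNA per cell cannot be told apart.

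The tissue label held against marker genes. The summed level of 6 fat cell markers (ADIPOQ, PLIN1, FABP4, LPL, CIDEC and LEP) was 17326 to 24369 TPM (a level scaled for transcript length and for the library total) in control and 21124 to 26749 TPM in resveratrol, while 4 skeletal muscle genes summed to at most 2.13 TPM. Library totals were 31528317 to 37943877 reads except in control 2, which had 16251536. Control 2 stands apart in the results below, so the main results that rest on it are given with and without it.

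The loci were few but well filled. A mean level of 0.5 TPM or more was reached by 379 of 390 loci (97.2%), against 77.5% of the Ensembl rows with a symbol and 40.2% of those without. All 59 loci with several transcripts passed, and 320 of 331 with 1 transcript. Between 378 and 383 loci had at least 1 read in each library, and 2 had none in any. The median locus had a mean of 10.9 TPM. Loci with 1 transcript had a median of 8.54 TPM and those with several 21.6 TPM. For Ensembl rows the medians were 5.58 TPM with a symbol and 0.140 TPM without. Loci are listed because reads were assembled there, whereas Ensembl rows are listed whether read or not. Of these, 553 with a symbol and 2305 without had no reads, so both contrasts are partly built in. At the edge of the filter, MSTRG.3406 (0.564 TPM) and MSTRG.3938 (0.501 TPM) lay just inside, and MSTRG.13816 (0.491 TPM) and MSTRG.12450 (0.473 TPM) just outside.

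A small number of loci carried much of the signal. The 10 highest held 54.1% of the TPM of all 390 loci by level, and the 10 most read held 45.8% of their reads, but only 2 loci stood in both lists. One of them was MSTRG.4655, first in both, with 5 transcripts, 15.6% of the TPM and 14.5% of the reads. Its level was 2721, 11799 and 9909 TPM in control 1 to 3 and 2298, 6657 and 9308 TPM in resveratrol 1 to 3. The lowest library of each diet was thus its replicate 1, and the diets overlapped throughout. Its log2 fold change of -0.28 ± 0.60 (SE) was smaller than its error (edgeR quasi-likelihood test, adjusted p = 0.925).

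The next levels belonged mostly to loci with 1 transcript. MSTRG.9613 had 2773, 5610.0 and 3589 TPM in control and 4317, 3571 and 4547 TPM in resveratrol. MSTRG.13667 had 1506, 3715 and 2782 TPM in control and 1731, 2681 and 2587 TPM in resveratrol. By TPM, control 1 was the lowest and control 2 the highest library in both. In TMM CPM, resveratrol 3 was the highest library of MSTRG.9613, at 871 against 809 in control 2. MSTRG.10119, with 2 transcripts, had the narrowest range of TPM of these, at 2247, 1968 and 2415 TPM in control against 2236, 2525 and 2576 TPM in resveratrol. MSTRG.14893 had the widest, at 454, 1373 and 3511 TPM in control and 779, 2333 and 1903 TPM in resveratrol, again with replicate 1 lowest in each diet. The remaining 5 of the 10 highest loci, MSTRG.14275, MSTRG.9048, MSTRG.12415, MSTRG.3909 and MSTRG.1704, had means of 1150.2 to 1745 TPM and overlapping diets.

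TPM and reads rank the loci differently because TPM divides by length. The tables state no length, but reads divided by TPM is proportional to the length that the quantification assigned. This ratio was set on a scale of bases with the mitochondrial protein genes, which have no introns, and their RefSeq lengths (Sscrofa11.1). Over the 10 of these genes from ND6 (528 bases) to ND5 (1821 bases) the ratio was a straight line in length, with the largest departure 2.16 to 5.15 bases in a library. The line met zero at 249 to 265 bases, so that short transcripts count with far fewer effective bases than they have. ATP8, 204 bases long, counted as 30.4 to 31.8 bases, so a read in a transcript of that size weighs many times more in TPM than a read in a long one. Shorter loci were therefore placed by interpolation through ATP8, ND4L, ND3 and ND6.

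Lengths were estimated for the 354 loci with at least 10 reads in every library, for 3 of them only as under that of ATP8. The median was 1176 bases, with quartiles of 524 and 3114 bases. By size, 50 loci were under 350 bases, 108 had 350 to 1000, 102 had 1000 to 3000, and 94 were longer. Past 10000 bases there were 26 loci. The longest were MSTRG.7630 (74822 ± 69.8 bases, SD over 6 libraries) and MSTRG.14467 (63157 ± 58.5 bases), each listed as 1 transcript. Lengths past the 1821 bases of ND5 lie beyond the genes of the line and are extrapolated. The SD gives the spread of the estimate between libraries and not its error. For comparison, the median of 14143 Ensembl rows was 1330.4 bases, and 77 of those rows passed 10000. At the short end, MSTRG.12493 and MSTRG.12134 counted with 28.7 and 29.6 effective bases, below ATP8, as did MSTRG.9048 at 30.1, so their length is given only as under that of ATP8.

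The short loci weighed differently in the 2 rankings. The 50 loci under 350 bases held 46.9% of the TPM of the 354 loci but 5.03% of their reads. MSTRG.9613 (314 bases), MSTRG.13667 (252 bases), MSTRG.14893 (208 bases) and MSTRG.1704 (211 bases) were among them. MSTRG.7630, in contrast, ranked 8 by reads and 217 by TPM.

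**Figure D1:**
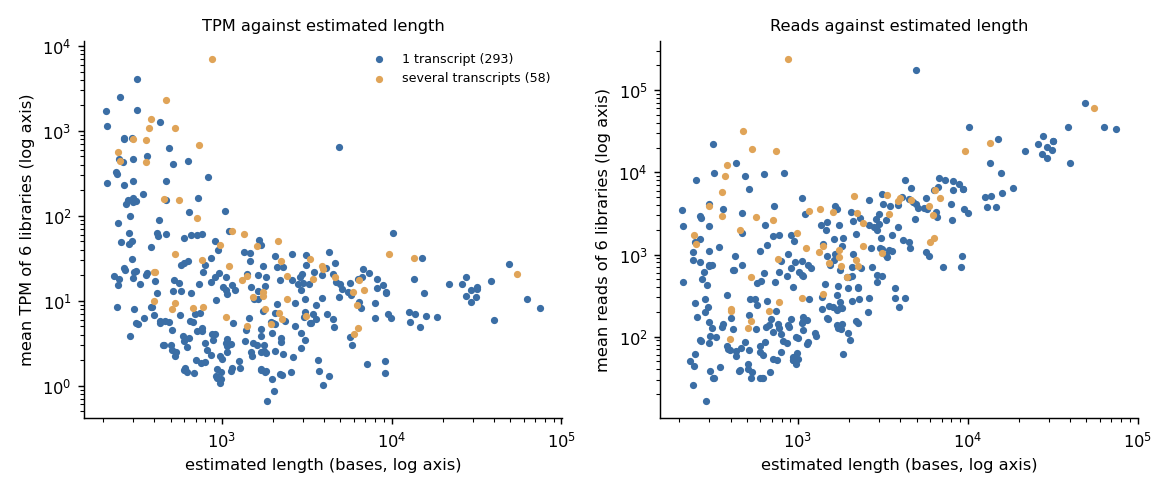
Mean TPM (left) and mean reads (right) of the 6 libraries against estimated length in bases, all axes logarithmic; each point is 1 locus with an estimated length, blue for 1 transcript (293) and yellow for several (58). The highest TPM values lie at the short end, while the loci past 10000 bases lie low in TPM and high in reads.

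The share of each library in the 390 loci differed less between diets than between control libraries. It was 4.45, 8.48 and 5.26% of reads in control 1 to 3 and 4.34, 5.30 and 4.87% in resveratrol 1 to 3. The means were 6.06% ± 2.13 (SD, n = 3) in control and 4.84% ± 0.479 in resveratrol. Control 2 alone lay above the resveratrol libraries by more than their spread, and without it the control mean was 4.86%. In TPM the shares were 3.52, 6.33 and 4.81% in control and 3.71, 4.50 and 4.55% in resveratrol. Loci with 1 transcript held 5.80% of the reads of control 2 and 2.84 to 3.58% elsewhere. Loci with several held 2.68% there and 1.19 to 2.03% elsewhere.

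Over all 6 libraries, the number of reads behind these shares varied less than the library totals, which rests on control 2. The 390 loci took 1378061 reads in control 2, close to the 1403227 of control 1, although control 2 had by far the smallest total. The other libraries had 1504582 to 2010657 reads in these loci. Without control 2 the reads in the loci ran from 1403227 to 2010657 and the library totals from 31528317 to 37943877. In proportion, the reads in the loci then varied more than the totals.

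A common profile over the libraries ran through the well-read loci. Levels were expressed as TMM CPM (read counts scaled to library totals corrected by the trimmed mean of M values) relative to the geometric mean of each locus, for the 137 loci with at least 1000 reads in every library. The median relative level was 0.964, 1.66 and 0.952 in control 1 to 3 and 0.829, 1.03 and 0.769 in resveratrol 1 to 3. Control 2 stood far above the rest and resveratrol 3 was lowest. The median of 2551 Ensembl rows chosen the same way stayed between 0.973 and 1.05 in all 6 libraries.

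Within 1.15-fold of that median profile in all 6 libraries lay 87 of the 137 loci (63.5%). The profile was computed from the same loci, so this describes how alike they are and tests nothing. Of Ensembl rows, 25 of 2551 (0.980%) kept to it, and of those without a symbol 12 of 269 (4.46%). Ensembl rows kept their own median profile in 414 cases (16.2%), so the loci were more alike among themselves than annotated rows were. Among loci with 1 transcript 73 of 106 kept the profile, and among those with several 14 of 31.

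Length went with this likeness. Most of the well-read loci were past 3000 bases, so long loci weighed most in the profile, and the counts by length test nothing. Past 3000 bases 53 of 74 well-read loci kept the profile, and of those with 1000 to 3000 bases 23 of 28 did. Of loci with 350 to 1000 bases it was 5 of 23, and of the shorter ones 6 of 12. The 87 loci had a median length of 4196 bases. Their summed reads were 562998, 602657 and 568909 in control 1 to 3 and 603351, 765433 and 508354 in resveratrol 1 to 3. Control 2 had the fewest reads of all, yet its sum exceeded those of the other controls. The 87 loci were chosen by a profile that is high in control 2, so this follows from the choice and tests nothing. Among the other libraries, the deepest, resveratrol 2, had the largest sum, and resveratrol 3 the smallest. As a share of the library they were 1.79, 3.71 and 1.67% in control and 1.74, 2.02 and 1.48% in resveratrol.

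MSTRG.7630 shows the pattern in a single locus. Its reads were 30195, 32636 and 31325 in control and 33644, 44546 and 29749 in resveratrol. Resveratrol 2, the deepest library, had the most, and control 2, with the smallest total, had more than the other controls. The TPM of the locus were 7.02, 15.1 and 7.03 in control and 6.29, 8.41 and 5.56 in resveratrol, high in control 2 alone. MSTRG.14467 fell just outside the profile by its height in control 2, with 8.53, 22.0 and 8.75 TPM in control and 7.79, 10.04 and 6.49 TPM in resveratrol. The part of library depth in the profile was not tested.

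**Figure D2:**
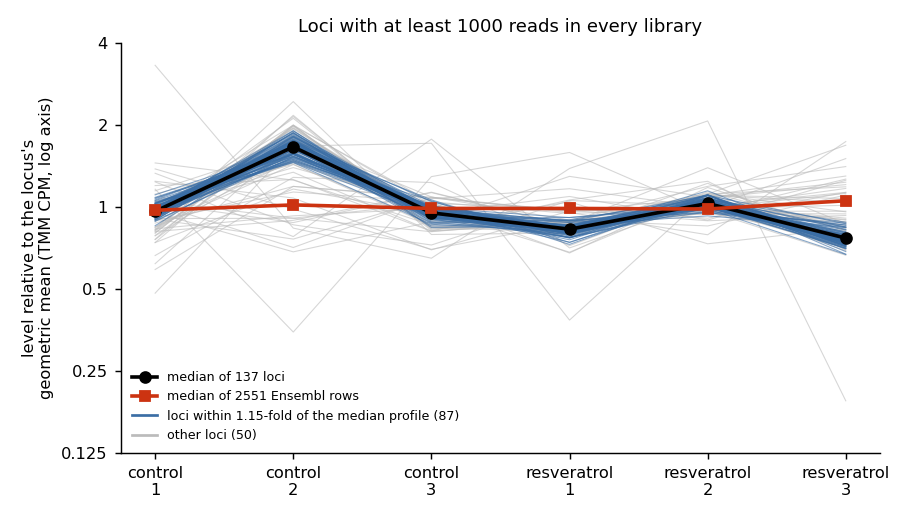
Level of each locus with at least 1000 reads in every library, relative to its geometric mean (TMM CPM, log axis), in the 6 libraries; blue lines are the 87 loci within 1.15-fold of the median profile, grey lines the other 50, black the median of all 137 loci and red the median of 2551 Ensembl rows. The loci peak together in control 2 (median 1.66) and are lowest in resveratrol 3 (0.769), where the Ensembl median stays near 1.

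**Figure D3:**
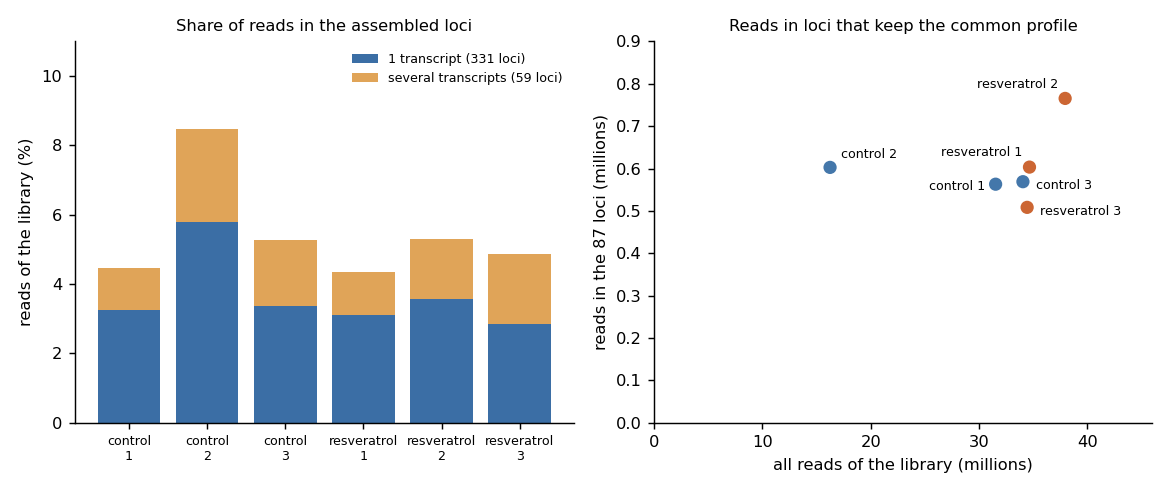
Left, percent of each library's reads in the assembled loci, stacked by number of transcripts (bars start at 0); right, summed reads of the 87 loci that keep the common profile against all reads of the library, blue for control and orange for resveratrol. Control 2 has the highest share (8.48%) and the smallest total, while its reads in the 87 loci lie among those of deeper libraries. These loci were chosen by a profile that is high in control 2.

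Against this background the diets were compared with edgeR's quasi-likelihood test on the counts of all 14908 rows that reached a mean level of 0.5 TPM. With Benjamini-Hochberg adjustment no locus passed 0.05, as no row of the table did (0%). The smallest adjusted p was 0.409, that of MSTRG.13223. At an unadjusted p under 0.05, 10 of 379 loci were higher with resveratrol (2.64%, against 2.21% of all rows) and 24 were lower (6.33%, against 4.32%). The 3 libraries of a diet lay entirely above those of the other in 10 loci higher with resveratrol (2.64%, against 5.67% of all rows) and in 16 lower (4.22%, against 6.97%). Loci with non-overlapping diets were thus no more frequent than in the whole table. All but 1 of the unadjusted calls were loci with 1 transcript: 10 higher and 23 lower of 320, against 0 and 1 of 59 with several. The count of lower loci moved with single libraries: it was 93 without control 1 (24.5%, against 4.21% of all rows), 97 without control 3 (25.6%, against 6.98%) and 48 without resveratrol 2 (12.7%, against 4.25%). It was 5 without resveratrol 1 (1.32%, against 2.23% of all rows) or without resveratrol 3 (1.32%, against 1.49%). The count of higher loci was 4 without resveratrol 3 (1.06%, against 1.21% of all rows).

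The loci as a group leaned towards control by their median, and most of that lean was gone without control 2. Their median log2 fold change was -0.29, against -0.0075 over all tested rows, and 264 of 379 (69.7%) were negative, against 51.2% of all rows. It was -0.32 in loci with 1 transcript and -0.24 in those with several. Without control 2 the median of all loci was -0.076 and 237 (62.5%) were negative, against 48.6% of all rows. The count of unadjusted calls was then 8 higher (2.11%, against 2.56% of all rows) and 11 lower (2.90%, against 5.69%). Control 2 was the highest library in 207 of 379 loci (54.6%) and in 27.4% of Ensembl rows. Resveratrol 3 was the lowest in 147 (38.8%), against 19.6% of Ensembl rows.

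The lean was larger in loci past 1000 bases and at higher levels. By length, the median log2 fold change was -0.15 under 350 bases, -0.048 at 350 to 1000, -0.28 at 1000 to 3000 and -0.45 past 3000 bases. Without control 2 the same 4 medians were -0.057, -0.039, -0.054 and -0.10. Ensembl rows of these lengths had medians of 0.032, 0.077, -0.0085 and -0.16, so their longest rows leaned the same way by less. Without control 2 the Ensembl medians were 0.053, 0.048, 0.0081 and -0.082, the last of them close to that of the loci. Control 2 was the highest library in 38% of the shortest loci and in 90.4% of the longest. For Ensembl rows these shares were 31.3% and 46.3%, a smaller step in the same direction. With the loci cut by level into 4 groups of 94 or 95, the medians from the lowest to the highest group were -0.0027, -0.088, -0.37 and -0.45, and without control 2 -0.036, 0.016, -0.097 and -0.10. Loci past 3000 bases had a median of 4435.5 reads, against 206 to 627 in the shorter groups. The cuts by length and by level are thus not separate observations.

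All 87 loci of the common profile had a negative log2 fold change, with a median of -0.46 (-0.14 without control 2), and 4 of them (4.60%, near the 4.32% of all rows) were lower at an unadjusted p under 0.05. The profile itself is lower on average in resveratrol, so their shared sign follows from the choice of these loci and tests nothing. Among the other 50 well-read loci the median was -0.28, and 0.024 without control 2. Among the 242 tested loci with under 1000 reads in some library it was -0.079, and -0.029 without control 2. The groups were cut by the same levels that the fold change uses, so these medians describe them and test nothing.

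**Figure D4:**
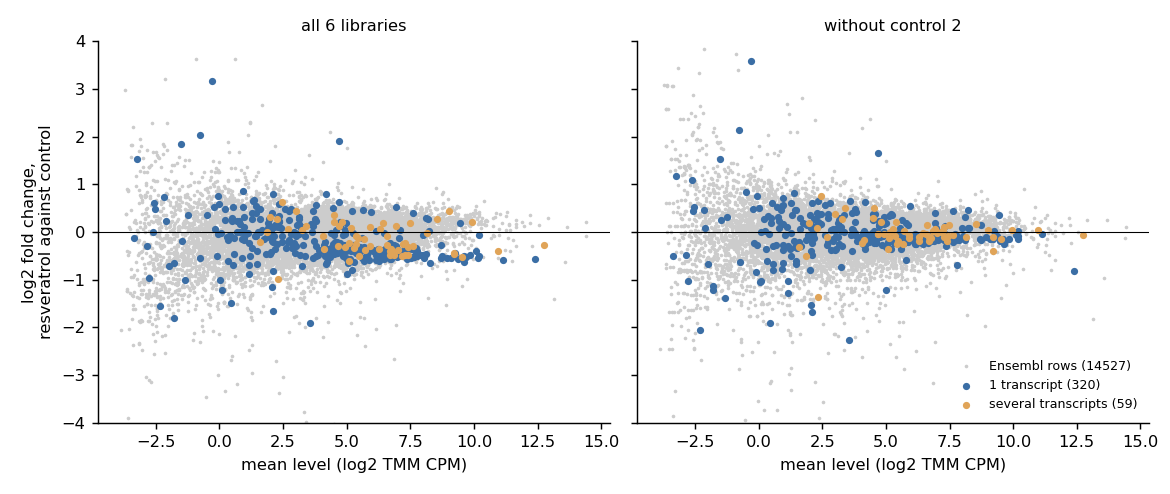
Log2 fold change of resveratrol against control (edgeR) against mean level (log2 TMM CPM), with all 6 libraries (left) and without control 2 (right); grey points are 14527 Ensembl rows, blue the 320 loci with 1 transcript and yellow the 59 with several. On the left the loci of high level form a band below 0, and on the right the band lies close to 0. Ensembl rows beyond the axis are not drawn, and no locus lies beyond it.

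Among single loci, MSTRG.13223 had the smallest p. Estimated at 361 bases with 1 transcript, it had 34.8, 37.7 and 25.5 TPM in control and 10.3, 12.1 and 6.87 TPM in resveratrol, from 265, 134 and 198 reads and 94, 109 and 62 reads. Every control library lay above every resveratrol library, and the gap between 25.5 and 12.1 TPM was wider than the range of either diet. Its log2 fold change was -1.66 ± 0.26 (SE), with an edgeR adjusted p of 0.409. DESeq2, run as an alternative, gave an adjusted p of 5.03e-05. In DESeq2 the locus passed with each of the 6 libraries left out in turn, with adjusted p values from 8.49e-05 to 0.00532. In edgeR it passed in none of these fits, with adjusted p values from 0.191 (without control 2) to 0.999956 (without resveratrol 3). The locus was singled out for its small p in these same libraries, so the left-out fits are no independent support.

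DESeq2 passed 2 further loci, both higher with resveratrol. In all it called 2 loci higher (0.0537% of all rows were) and 1 lower (0.215% of all rows). MSTRG.9374 (3043 bases) had 1.94, 2.03 and 4.34 TPM in control and 10.3, 15.1 and 4.93 TPM in resveratrol. The diets did not overlap, but control 3 and resveratrol 3 lay next to each other. Its log2 fold change was 1.90 ± 0.47 (SE; edgeR adjusted p = 0.733; DESeq2 adjusted p = 0.00247), and the DESeq2 call was lost without control 2 (0.270), resveratrol 1 (0.0617) or resveratrol 2 (0.142).

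MSTRG.7139 had 2.05, 7.65 and 3.19 TPM in control and 26.5, 2.78 and 62.0 TPM in resveratrol, from 6 to 10 reads in each control library and 94, 9 and 218 reads. Resveratrol 2 lay within the control libraries, so the diets overlapped. Its DESeq2 adjusted p was 0.0439 and its edgeR adjusted p 0.733. Of the 6 fits with a library left out, only the one without resveratrol 2 kept the DESeq2 call.

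A few more loci were lower with resveratrol in every library without passing any adjusted threshold. MSTRG.14191 (4274 bases) had 1.85, 1.77 and 1.28 TPM in control and 1.03, 1.09 and 0.717 TPM in resveratrol (log2 fold change -0.70 ± 0.22 SE). MSTRG.13318 (527 bases) had 1.86, 4.56 and 3.16 TPM in control and 1.04, 1.41 and 1.31 TPM in resveratrol (-1.22 ± 0.41). In the first, control 1 and control 2 were nearly equal by TPM, and the log2 fold change without control 2 was -0.73. In the second, control 2 was highest, and the log2 fold change without it was -1.03. MSTRG.2087, MSTRG.4664, MSTRG.2652, MSTRG.1823 and MSTRG.5353 also had non-overlapping diets. Control 2 was their highest library in each case, and MSTRG.5353 had only 3 to 14 reads in a library. For example, MSTRG.1823 had 291, 557 and 287 TPM in control and 251, 255 and 228 TPM in resveratrol, and its log2 fold change went from -0.50 to -0.27 without control 2. That of MSTRG.2087 went from -0.55 to -0.35 and that of MSTRG.4664 from -0.82 to -0.48. MSTRG.2652 went from -0.54 to -0.31 and MSTRG.5353 from -1.81 to -1.21.

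Of the loci higher with resveratrol in every library, MSTRG.6296 (297 bases) stood at the highest level. It had 726, 669 and 679 TPM in control and 1037, 879 and 905 TPM in resveratrol. MSTRG.2752 (731 bases) had 14.1, 12.8 and 12.3 TPM in control and 16.3, 20.1 and 19.3 TPM in resveratrol. By TPM the gap to the nearest resveratrol library was wider than the range of the controls in both. In TMM CPM, on which the fold changes rest, it was narrower: MSTRG.6296 had 117, 83.9 and 108 in control and 159, 133 and 151 in resveratrol. Their log2 fold changes were 0.52 ± 0.18 and 0.58 ± 0.19 (SE; edgeR adjusted p = 0.733 for each), and 0.39 and 0.48 without control 2. MSTRG.9710 (299.7 bases) had 113, 122 and 135 TPM in control and 174, 161 and 159.9 TPM in resveratrol. Its log2 fold change was 0.50, and 0.38 without control 2. MSTRG.8460, MSTRG.1887, MSTRG.3917 and MSTRG.932 showed smaller levels of 1.90 to 4.63 TPM on average, with log2 fold changes of 0.44 to 0.86. Without control 2 the change was smaller in MSTRG.8460 (0.72) and MSTRG.1887 (0.39) and larger in MSTRG.3917 (0.81) and MSTRG.932 (0.61). By TPM, unlike by TMM CPM, the diets of MSTRG.3917 and MSTRG.932 overlapped.

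Without control 2, DESeq2 passed 5 loci, all lower: MSTRG.13223, MSTRG.13208, MSTRG.14677, MSTRG.2017 and MSTRG.2018. These are 1.32% of the loci, and 197 of all rows (1.32%) passed in the same fit, so the loci were called at the rate of the whole table. The last 4 were singled out after their values were seen. In each of the 4, control 2 lay within or below the resveratrol libraries and control 1 and 3 above them. MSTRG.13208 (599.6 bases) had 95.5, 41.6 and 75.02 TPM in control and 33.6, 48.7 and 31.3 TPM in resveratrol. MSTRG.14677 (297 bases) had 53.0, 20.8 and 54.0 TPM in control and 22.5, 22.7 and 12.002 TPM in resveratrol. The same form held for MSTRG.2017, with 2.04, 0.624 and 3.10 TPM in control and 0.818, 0.905 and 0.357 TPM in resveratrol. With all 6 libraries the diets overlapped in each of them.

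**Figure D5:**
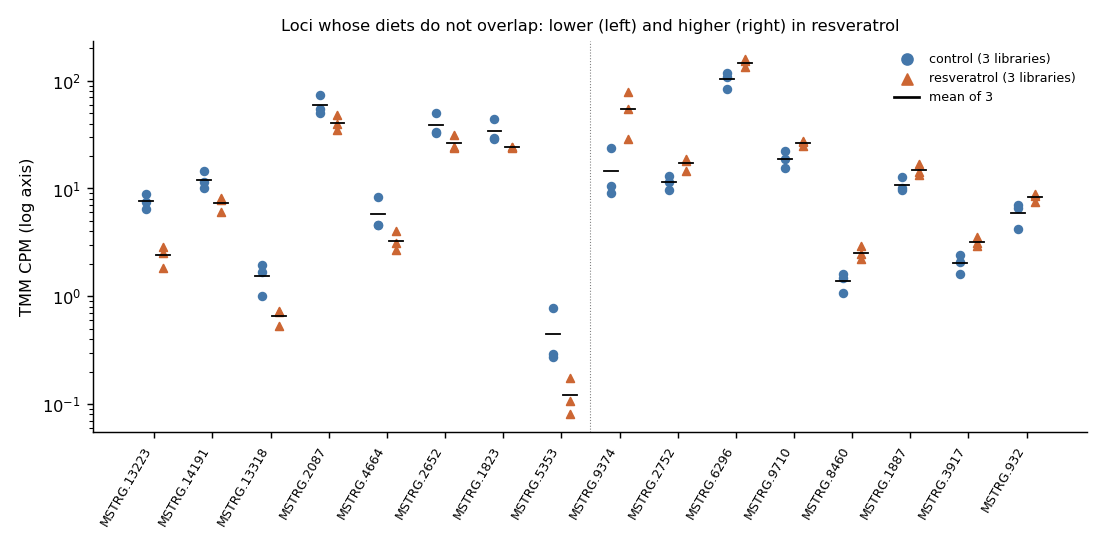
TMM CPM (log axis) of the 8 loci per direction with the smallest unadjusted edgeR p among those whose diets do not overlap, lower with resveratrol on the left and higher on the right; blue circles are the 3 control libraries, orange triangles the 3 resveratrol libraries and black bars the means of 3. MSTRG.13223 has a wide gap between the diets, and most other loci a narrow one.

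Of summed markers of other cell types, those of tendon and cartilage and of macrophages did not overlap between the diets. Those of red cells and skeletal muscle did. Of 4 tendon and cartilage genes (TNMD, COMP, COL2A1 and ACAN), all 4 were found, none at 0, and they summed to 6.51 to 96.4 TPM in control and 2.05 to 3.76 TPM in resveratrol. The sums did not overlap, but COMP and ACAN did, and in control 2 COL2A1 alone gave 5.08 of 6.51 TPM. Without COL2A1 the sum of control 2 was 1.43 TPM, within the 0.972 to 2.79 TPM of resveratrol. All 6 macrophage genes were found, and they summed to 178 to 198 TPM in control and 234 to 325 TPM in resveratrol. CD68, CD163, CD14 and AIF1 overlapped between the diets, while TYROBP and MSR1 did not. MSR1 had 6.11, 7.69 and 4.765 TPM in control and 9.19, 8.87 and 9.48 TPM in resveratrol. The separation of the sums rested on TYROBP. Without it they were 77.0 to 95.3 TPM in control and 94.1 to 129 TPM in resveratrol, with a narrow overlap. The part of either in the loci that were lower or higher was not tested. Red cell genes summed to 773 to 1108 TPM in control and 1032 to 1211 TPM in resveratrol, with overlap. Of the fat cell markers, ADIPOQ alone did not overlap, at 3614, 4042 and 3795 TPM in control and 4437, 4683 and 4575 TPM in resveratrol. By TMM CPM the diets did not overlap in 5.67% (higher) and 6.97% (lower) of all tested rows. The share by TPM, the measure used for these markers, was not taken.

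Replicates of a diet differed more in the loci than in Ensembl rows. The median SD of log2 TMM CPM within a diet was 0.378 in the loci and 0.266 in Ensembl rows, and without control 2 it was 0.240 and 0.212. In the tenth of all tested rows with the highest level, which holds 96 loci, it was 0.385 against 0.224, and 0.199 against 0.174 without control 2.

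Several loci varied widely between libraries of the same diet. MSTRG.6013 had 34, 37 and 91 reads in control, 131 and 152 in resveratrol 1 and 2, and 0 in resveratrol 3. MSTRG.14813 (827 bases) had 643, 201 and 127 TPM in control and 281, 423 and 36.2 TPM in resveratrol. It is a well-read locus, with 1457 reads in its lowest library, so counting error is small beside this range. MSTRG.2065 had 4.60, 0.851 and 13.4 TPM in control and 5.64, 6.51 and 10.3 TPM in resveratrol. MSTRG.13247 had 3.47, 0.25 and 1.12 TPM in control and 2.15, 0.997 and 1.26 TPM in resveratrol, and like MSTRG.2065 it was lowest in control 2. MSTRG.14579 was highest in resveratrol 3, at 5.64 TPM, and between 0.314 and 2.09 TPM elsewhere.

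Among the 59 loci with several transcripts, 40 listed 2, 12 listed 3 and 7 listed more. MSTRG.6807 listed the most, 11 transcripts, at 948, 902 and 522 TPM in control and 663, 541 and 467 TPM in resveratrol. The diets overlapped, and its log2 fold change was -0.45 ± 0.24 (SE; edgeR adjusted p = 0.733). MSTRG.12490, with 10 transcripts, had 65.8, 11.998 and 9.66 TPM in control and 7.41, 23.5 and 11.3 TPM in resveratrol, so that control 1 alone stood out.

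In a locus with several transcripts, the estimated length moves with the transcripts to which reads are assigned. In the loci with 1 transcript the length hardly moved, with a median SD over the libraries of 0.493 bases and no locus varying by more than 1.1-fold. Of 58 loci with several transcripts and enough reads, 10 varied by more than 1.1-fold. MSTRG.486 varied widely, with estimated lengths of 4485, 5515 and 5639 bases in control and 3226, 4512 and 4404 bases in resveratrol. Resveratrol 1 was lowest and control 3 highest, and control 1 lay within the resveratrol libraries. Over 8554 rows with several transcripts, limma on the log2 ratio of reads to TPM passed none after adjustment (0%, smallest adjusted p = 0.640), and 5.24% at an unadjusted p under 0.05.

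The unadjusted calls held 2 of the 58 loci, MSTRG.8019 and MSTRG.8981. That is 3.45% of the loci, below the share of all rows. Without control 2 the count was 16 (27.6%, against 29.6% of all rows). It was 4 without control 1 or control 3 (6.90%, against 4.71% and 5.40% of all rows), and 1 without resveratrol 2 or resveratrol 3 (1.72%, against 3.87% and 2.78%). MSTRG.8019, with 7 transcripts, was 3289, 3269 and 3324 bases in control and 3357, 3361 and 3341 bases in resveratrol, without overlap but by a log2 difference of only 0.030 ± 0.0058 (SE; limma adjusted p = 0.719). MSTRG.8981, with 2, was 1722, 1715 and 1743 bases in control and 1757, 1744 and 1741 bases in resveratrol, where control 3 overlapped. MSTRG.9181 was 2557, 2510.1 and 2427 bases in control and 2461, 2316 and 2272 bases in resveratrol, with the diets overlapping.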

How the data were processed

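Total RNA of subcutaneous fat was sequenced in 3 control and 3 resveratrol libraries; groups and numbers come from the sample titles. Per the file headers, the tables that the authors deposited hold a read count in whole numbers and a TPM value for every row of each library. The submitters' processing notes name Bowtie 0.12.2 and, of genome builds, those of mouse (mm8, mm9), while the rows carry pig identifiers; a pig build, an assembler, a counting program and its use of strand were not given in the sources used here. Therefore no coordinates or sequences are printed, and reads of overlapping, antisense or repeated copies may be shared between loci. A deposited table of the whole series was not used here.

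The 14908 rows that reached a mean level of 0.5 TPM were tested with edgeR 4.0.16 in R 4.3.3 (TMM scaling, robust quasi-likelihood test, Benjamini-Hochberg adjustment over all rows, threshold 0.05). Reads per TPM were tested with limma 3.58.1 in rows with several transcripts and at least 10 reads in every library. DESeq2 1.42.0, other scalings and filters, limma on log2 TPM, a replicate block and each library left out were alternatives. The scripts were tested on simulated data. Lengths, the common profile and DESeq2 with a library left out were chosen after seeing the data. Members and lists were chosen with earlier results of these data known. Depth was 16251536 to 37943877 reads.

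Named loci are, of those past the filter unless said: the 8 per direction with the smallest unadjusted p and non-overlapping diets; the 10 highest in TPM; the 6 with the widest range over libraries; the 4 with the most transcripts; those past an adjusted threshold; the 2 longest and the 2 shortest; the 2 on each side of the filter; and the 4 with the smallest p for length.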

Additional observations from a re-analysis of the deposited data

How the results depend on the processing

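No assembled locus passed the adjusted threshold in edgeR or limma under any of the scalings, filters, pseudocounts or left-out libraries, whereas DESeq2 passed 3 loci (40 of all rows). With a library left out, DESeq2 passed 3 loci of 41 rows (control 1; MSTRG.13223, MSTRG.9374 and MSTRG.6438), 5 of 197 (control 2), 2 of 91 (control 3), 1 of 21 (resveratrol 1), 2 of 43 (resveratrol 2) and 2 of 19 (resveratrol 3), an alternative chosen after seeing the data; the cause was not tested. Over all rows, edgeR passed 0 to 5 with a library left out, 5 without control 2, and 403 to 1681 at an unadjusted p under 0.05, against 973. Loci higher at an unadjusted p numbered 10 in the main test and 13 in DESeq2 (3.43%, against 2.36% of all rows). With a library left out they numbered 4 to 12 (4 without resveratrol 3). The 24 loci lower became 41 in DESeq2 (10.8%, against 5.02% of all rows), 14 in limma on log2(TPM + 1) (3.69%, against 3.71%), and 5 to 97 with a library left out: 93 without control 1, 97 without control 3, 48 without resveratrol 2, 11 without control 2 and 5 without resveratrol 1 or resveratrol 3. The median log2 fold change of all tested loci ran from -0.39 to -0.076 with a library left out. The mean share of reads in resveratrol was 5.48% outside the 2 dominant loci and 4.25% of TPM. Rows with a change in length numbered 0 to 1. Of 272 values of named loci, 269 kept side and direction, 3 passed only in DESeq2, and 0 reversed. Most of these loci were chosen for non-overlapping diets in these same libraries, so few reversals could arise. Keeping the side mostly meant staying short of the adjusted threshold, so these counts are no support for the single loci.

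The labels give both diets the same replicate numbers but do not pair them. Same-numbered libraries deviated together with correlations of 0.157, 0.0741 and 0.200, and 6 of 6 libraries correlated best with their own number, a hint from the data only. With the replicate block, 100 loci were lower (26.4%, against 5.45% of all rows) and 13 higher (3.43%, against 3.00%) at an unadjusted p under 0.05, 1259 rows in all, and 0 passed adjustment.

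Depth limits the loci with few reads, such as MSTRG.5353, and 3 libraries a diet limit every comparison.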
